A study of Mus musculus with 12 samples.

Results

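Pou5f1, Sox2, Sall4, Sall1, Zfp281, Lin28a, Lin28b and Trim71 are genes of the general pluripotency network, meaning genes used by mouse embryonic stem cells (mESCs) in both of their common culture media, together with the LIN28 genes and their partner Trim71. The 8 genes were taken as a named list, and they are 8 of the 39017 genes in the gene table. Each was measured as reads of poly(A) RNA in 12 libraries, 3 biological replicates in each of 4 groups, with 37050652 to 44515395 estimated reads per library, and all 8 passed the filter on low counts. The groups were wild-type J1 mESCs in serum with LIF, J1 in 2i with LIF, 3B3L mESCs (3B3-3l in the labels) in serum with LIF and 3B3L in 2i with LIF. In 3B3L cells the endogenous Dnmt3a and Dnmt3b genes are knocked out, and the cells carry transgenes for Dnmt3b and Dnmt3l driven by the constitutive CAG promoter, so the enzymes that place new DNA methylation stay on in 2i. 2i medium is serum-free and holds the MEK inhibitor PD0325901 at 1 µM and the GSK3 inhibitor CHIR99021 at 3 µM. The serum medium held neither inhibitor. J1 cells in serum grew on inactivated feeder cells, which the methods say were removed by repeated short plating ahead of analysis or 2i conversion. 3B3L cells in serum grew on gelatin, so culture surface and cell line cannot be told apart in that medium. In J1 the move to 2i also meant the loss of feeders. The 2i effect in J1, and its difference from that in 3B3L, cannot be told apart from this loss. Each genotype is a single cell line, and 3B3L differs from J1 in the deletions as well as in the transgenes. The study asked whether 3B3L cells, in which DNA methylation is held up, still take on the transcriptome of 2i.

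Pou5f1 encodes OCT4 and Sox2 encodes its DNA-binding partner, and the pair occupies enhancers of pluripotency genes. SALL4 and SALL1 are related zinc finger factors that bind the NuRD histone deacetylase complex, and ZFP281 is a zinc finger factor linked to the passage from the naive to the primed state. LIN28A and LIN28B are RNA-binding proteins that hold back the let-7 family of miRNAs by binding their precursors. LIN28A brings in enzymes that add a U tail. TRIM71 (LIN41) is an RNA-binding protein that represses a small set of mRNAs. Mature let-7 in turn represses mRNAs whose 3′ UTR pairs with its seed, and the mRNAs of Lin28a, Lin28b and Trim71 are textbook examples.

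The let-7 sequences are shown because they join the LIN28 genes, their miRNA and Trim71. Of 11 mature let-7 family arms in RefSeq (GRCm38.p6), 10 shared 1 seed, bases 2 to 8, set in capitals here. The exception, let-7j, is printed last for contrast.
mmu-let-7a-5p: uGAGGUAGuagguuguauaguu
mmu-let-7b-5p: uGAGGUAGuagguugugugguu
mmu-let-7d-5p: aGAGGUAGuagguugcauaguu
mmu-let-7g-5p: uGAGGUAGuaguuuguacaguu
mmu-miR-98-5p: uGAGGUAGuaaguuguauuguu
mmu-let-7j: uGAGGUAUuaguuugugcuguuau
The 7 letters CTACCTC, which pair with the common seed, were searched on the sense strand of the 3′ UTR of 1 coding transcript per gene in the GENCODE vM1 models. Lin28b held 4 matches, Lin28a 2, Trim71 2 and Sall4 1, while the models of Pou5f1, Sox2, Sall1 and Zfp281 held 0. Among 19612 genes with a 3′ UTR, 8.65% held at least 1 match, and among the 8910 genes with a 3′ UTR of at least 1000 bases 15.4% did. At least 3 matches, as in Lin28b, occurred in 0.269% of those longer 3′ UTRs. A match describes letters only, and miRNAs themselves were not measured in these libraries. Each match is printed with its flanks, the 7 letters in capitals. Matches of Lin28b start at bases 36, 2410, 2582 and 3998 of a 3′ UTR of 4445 bases.
Lin28b, base 36: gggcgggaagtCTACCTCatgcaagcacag
Lin28b, base 2410: cttgttagtaaCTACCTCtgagtttgacat
Lin28b, base 2582: acagcacatggCTACCTCccagctaccaca
Lin28b, base 3998: gatggcaccgaCTACCTCttcaatcacttg
Lin28a, base 909: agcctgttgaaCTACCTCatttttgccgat
Lin28a, base 1547: tcgccacaaacCTACCTCactgtgttgaaa
Trim71, base 166: ttgcctaagtcCTACCTCagcttaaatttt
Trim71, base 262: ataatttctatCTACCTCaactctttgcat
Sall4, base 1082: ctttaatttatCTACCTCaattatctttat
In Lin28a, Trim71 and Sall4 every match is followed by an A, the 8-letter form of the site, and in Lin28b 1 of 4 is. The Trim71 transcript quantified in the transcript tables is 9332 bases long and the model searched is 5190 bases long, so part of its 3′ UTR may not have been searched.

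By fitted value the LIN28 genes had the largest falls of the 8 genes in 2i, in each line, but by unequal amounts. In J1 the log2 fold change of Lin28b (-0.99 ± 0.07, SE) was close to that of Sall4 (-0.93 ± 0.05). The order of Lin28b and Sall4 in J1 is therefore not settled. Lin28a fell more in J1 and Lin28b fell more in 3B3L, and each of these differences between lines passed the test. Sox2, Sall4 and Trim71 also fell in 2i, each more in J1 than in 3B3L. Pou5f1 passed the test in no contrast, and its group means lay between 1224 and 1333 CPM.

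**Figure D1:**
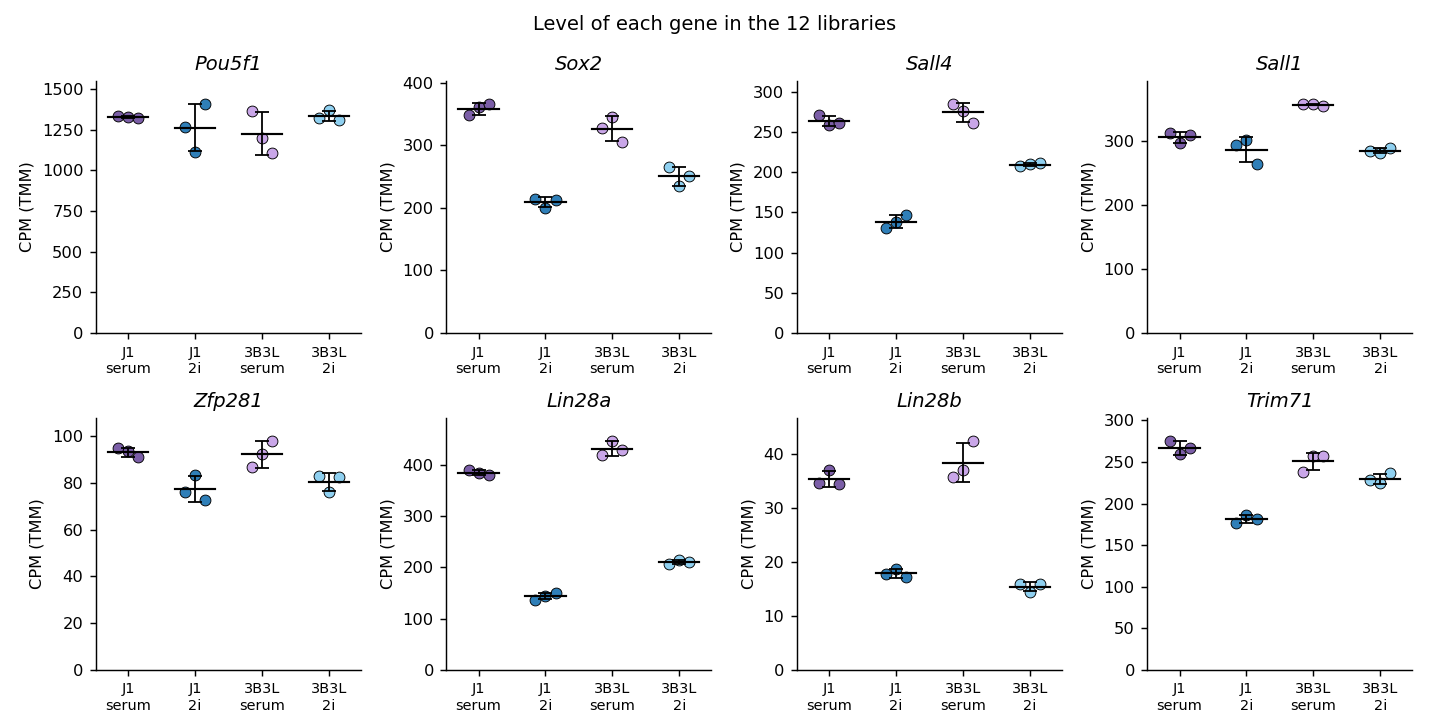
Counts per 1000000 reads (CPM, TMM library sizes) of each gene in the 12 libraries, 1 point per library, with the mean (horizontal bar) and SD (error bar) of each group of 3 and axes from 0. Lin28a ranges from 379.7 to 390.2 CPM in J1 serum and from 137 to 149 in J1 2i, while the 4 groups of Pou5f1 overlap.

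Levels of different genes were compared per length, as reads per 1000000 reads of the library and per kilobase of effective transcript length. On this scale Pou5f1 was highest in every group, from 1034 ± 93.3 (SD, n = 3) in 3B3L serum to 1106 ± 9.92 in J1 serum. Sox2 came next, at 157 ± 3.90 in J1 serum and 93.1 ± 2.37 in J1 2i. Lin28b was lowest in every group, at 7.42 ± 0.752 in 3B3L serum and 2.87 ± 0.162 in 3B3L 2i, and Zfp281 and Trim71 stood next above it. The middle of the order changed with the medium in J1, and in 3B3L the 8 genes stood in the same order in both media. Lin28a ranked behind Sox2 in J1 serum at 115 ± 1.98, above Sall4 at 62.8 ± 1.49 and Sall1 at 60.3 ± 1.43. In J1 2i it stood at 43.8 ± 1.72, below Sall1 at 57.4 ± 5.32 and above Sall4 at 33.7 ± 1.13. In 3B3L serum Lin28a was at 130.6 ± 4.33, above Sall1 at 70.9 ± 0.326 and Sall4 at 65.05 ± 2.10. In 3B3L 2i Lin28a stayed behind Sox2 at 61.2 ± 1.33, above Sall1 at 54.5 ± 1.03 and Sall4 at 49.0 ± 1.26. Within each group, the 3 libraries of each gene did not overlap those of the next gene in the order, and the closest neighbours were Sall4 and Sall1 in J1 serum, where the lowest Sall4 library stood at 61.9 and the highest Sall1 library at 61.5. That order depends on the unit. The short transcript Sall4-004 (effective length 603 bases) held 12.0% of the Sall4 level there but 1.74% of its reads. In CPM, Sall4 was below Sall1 in J1 serum, at 264 against 306.

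**Figure D2:**
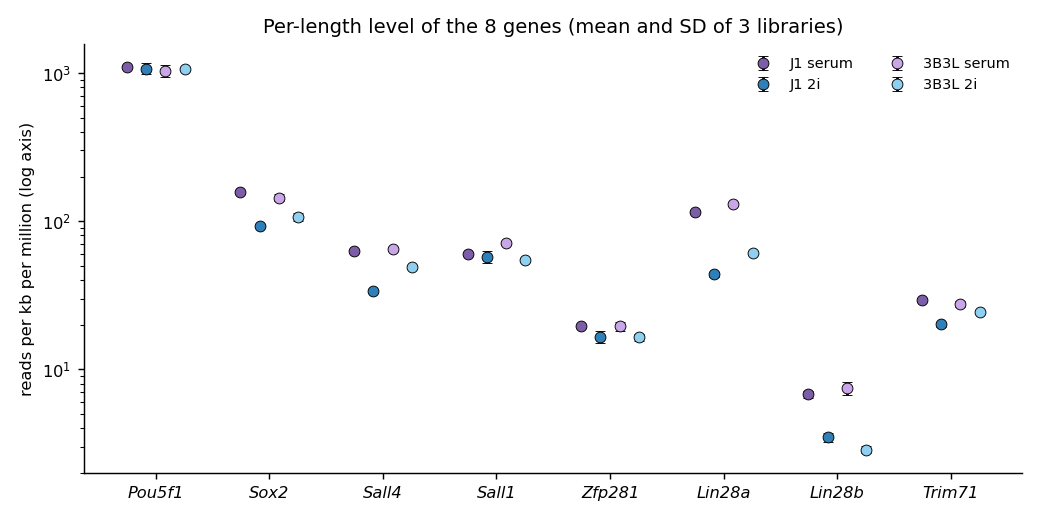
Per-length level of the 8 genes in the 4 groups, in reads per 1000000 reads and per kilobase of effective length on a log axis; points are means and bars the SD of 3 libraries. Group means of Pou5f1 lie between 1034 and 1106, and those of Lin28b between 2.87 and 7.42.

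Taking the 2i effect first, 6 of the 8 genes were called in J1 by the edgeR quasi-likelihood test at an adjusted p under 0.05, and 0 were higher and 6 lower. Of all 17885 genes tested in J1, 66.1% were called, 33.2% higher and 32.9% lower. In 3B3L 7 of the 8 genes were called, 0 higher and 7 lower, beside 65.4% of all genes called, 32.7% higher and 32.7% lower. No member rose in either line at an unadjusted p under 0.05 in edgeR or at an adjusted p under 0.05 in the DESeq2 Wald test. The median log2 fold change of the 8 genes was -0.67 in J1 and -0.35 in 3B3L, against 0.01 and 0.01 for all genes tested. The share of members called was thus close to the background in J1, and all of their calls lay on the lower side. The libraries of 2i lay below those of serum without overlap for 6 of 8 genes in J1 and for 7 of 8 in 3B3L, as they did for 34.0% and 34.7% of all genes tested.

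**Figure D3:**
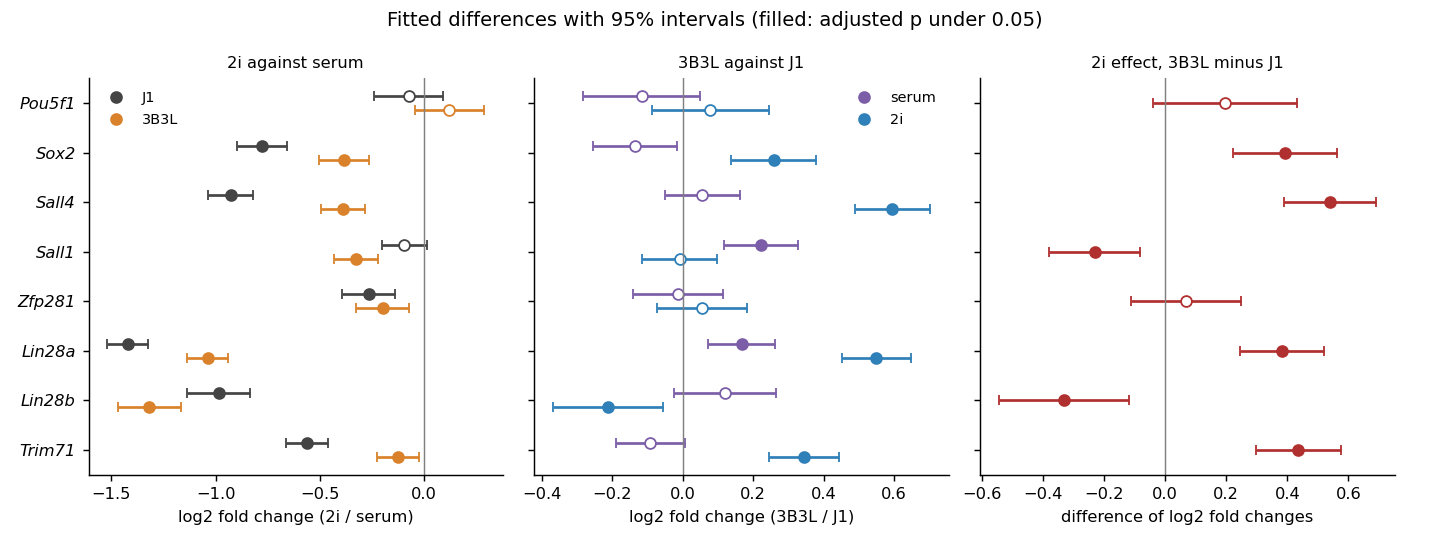
Fitted log2 fold changes of the 8 genes with 95% intervals, for 2i against serum in each line (left), 3B3L against J1 in each medium (middle) and the interaction, 3B3L minus J1 (right); filled points passed the test. Lin28a and Lin28b swap order between the lines in the left panel, with Lin28a at -1.42 in J1 and -1.04 in 3B3L and Lin28b at -0.99 and -1.32.

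Pou5f1 (chromosome 17, 35506032 to 35510777 in GRCm38, ENSMUSG00000024406) encodes OCT4, which mESCs need to remain pluripotent. In J1, Pou5f1 stood at 1336, 1327 and 1321 CPM in serum and at 1265, 1114 and 1407 CPM in 2i. In 3B3L, its level was 1365, 1199 and 1109 CPM in serum and 1320.2, 1368 and 1309 CPM in 2i. The media overlapped in each line, and the spread was widest in J1 2i and in 3B3L serum. The log2 fold change in 2i was -0.07 ± 0.08 (SE, adjusted p = 0.426) in J1, with a 95% interval from -0.24 to 0.09, and 0.12 ± 0.08 (adjusted p = 0.185) in 3B3L, with an interval from -0.04 to 0.29. Neither interval reaches a change of 2-fold. The 3B3L value passed the test without the first 3B3L serum library (0.21, adjusted p = 0.0259). Of its 7 quantified transcripts, Pou5f1-001 held at least 99.7% of the per-length level in each group.

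Sox2 (chromosome 3, 34649995 to 34652461, ENSMUSG00000074637), the partner of OCT4 on shared enhancers, fell in each line. In J1, Sox2 stood at 348, 361 and 366 CPM in serum and at 215, 200.03 and 213 CPM in 2i. In 3B3L, it stood at 327, 346 and 306 CPM in serum and at 265, 235 and 250.7 CPM in 2i. All 2i libraries were below all serum libraries of their line, and the lowest were those of J1 2i. The log2 fold change was -0.78 ± 0.06 (adjusted p = 5.9e-09) in J1 and -0.38 ± 0.06 (adjusted p = 1.9e-05) in 3B3L. The overlapping transcript Sox2ot stood at 1.16 to 1.62 CPM as group means, far under Sox2.

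Sall4 (chromosome 2, 168748332 to 168767201, ENSMUSG00000027547), a factor linked to proliferation and to Pou5f1 expression in mESCs, fell in each line. In J1, Sall4 stood at 271, 259 and 261 CPM in serum and at 131, 138 and 147 CPM in 2i. In 3B3L, the values were 285, 276 and 261 CPM in serum and 208, 209.7 and 211 CPM in 2i. The serum libraries of the lines overlapped and the 2i libraries did not. Its log2 fold change was -0.93 ± 0.05 (adjusted p = 1.6e-10) in J1 and -0.39 ± 0.05 (adjusted p = 4.2e-06) in 3B3L. Sall4 had 7 quantified transcripts, and Sall4-001 held 83.6% ± 3.83 of the per-length level in J1 serum, 82.7% ± 2.87 in J1 2i, 84.5% ± 0.733 in 3B3L serum and 82.3% ± 2.69 in 3B3L 2i. Its share differed between media by exact p = 0.7 in J1 and p = 0.3 in 3B3L, where 3 libraries against 3 cannot give less than 0.1.

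Sall1 (chromosome 8, 89027242 to 89044162, ENSMUSG00000031665), which encodes a factor of the same family, behaved otherwise. In J1, Sall1 stood at 312, 296 and 309.6 CPM in serum and at 294, 301.7 and 264 CPM in 2i. In 3B3L, its libraries held 358, 358 and 355 CPM in serum and 285, 282 and 288 CPM in 2i. The media overlapped in J1 and were apart in 3B3L, where the serum libraries were the highest of the series. The log2 fold change was -0.09 ± 0.05 (adjusted p = 0.110) in J1 and -0.32 ± 0.05 (adjusted p = 2.8e-05) in 3B3L. Without the second J1 2i library the J1 value was -0.13 (adjusted p = 0.0385).

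Zfp281 (chromosome 1, 136624901 to 136630391, ENSMUSG00000041483) changed little. In J1, Zfp281 stood at 94.8, 93.7 and 91.1 CPM in serum and at 76.3, 83.5 and 72.8 CPM in 2i. In 3B3L, it was at 86.6, 92.2 and 98.1 CPM in serum and at 82.8, 76.2 and 82.5 CPM in 2i. The 2i libraries were below the serum libraries in each line, with a small gap in 3B3L. The log2 fold change was -0.27 ± 0.06 (adjusted p = 0.00107) in J1 and -0.20 ± 0.06 (adjusted p = 0.00865) in 3B3L. Its transcripts, Zfp281-001 and Zfp281-002, have effective lengths of 4762 and 4766 bases, so how reads split between them is uncertain.

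Lin28a (chromosome 4, 134003330 to 134019196, ENSMUSG00000050966) encodes an RNA-binding protein typical of undifferentiated cells. In J1, Lin28a stood at 390.2, 384 and 379.7 CPM in serum and at 137, 145 and 149 CPM in 2i. In 3B3L, the libraries held 419.8, 447 and 429 CPM in serum and 206, 215 and 210.5 CPM in 2i. The 4 groups did not overlap, with 3B3L above J1 in each medium. Its log2 fold change was -1.42 ± 0.05 (adjusted p = 4.0e-13) in J1, a 2.68-fold fall, and -1.04 ± 0.05 (adjusted p = 1.1e-11) in 3B3L, a 2.05-fold fall. In J1 15.5% of the genes tested had a larger absolute log2 fold change, and in 3B3L 23.1% did.

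Lin28b (chromosome 10, 45376617 to 45486314, ENSMUSG00000063804), the paralogue of Lin28a, was less abundant. In J1, Lin28b stood at 34.6, 37.1 and 34.4 CPM in serum and at 17.7, 18.7 and 17.1 CPM in 2i. In 3B3L, it stood at 35.8, 37.0 and 42.5 CPM in serum and at 15.9, 14.5 and 15.9 CPM in 2i. The lines overlapped in serum, and in 2i all 3B3L libraries lay below all J1 libraries. The log2 fold change was -0.99 ± 0.07 (adjusted p = 4.6e-09) in J1, a 1.98-fold fall, and -1.32 ± 0.07 (adjusted p = 1.3e-10) in 3B3L, a 2.49-fold fall.

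Trim71 (chromosome 9, 114511268 to 114564369, ENSMUSG00000079259), the let-7 target that encodes LIN41, fell mainly in J1. In J1, Trim71 stood at 276, 259 and 267 CPM in serum and at 176, 186 and 181 CPM in 2i. In 3B3L, its level was 238, 257 and 257 CPM in serum and 228, 225 and 237 CPM in 2i. The media were far apart in J1 and nearly touched in 3B3L. The log2 fold change was -0.56 ± 0.05 (adjusted p = 2.9e-08) in J1 and -0.13 ± 0.05 (adjusted p = 0.0271) in 3B3L. The 3B3L value did not pass the test without the first 3B3L 2i library (-0.12, adjusted p = 0.0779), without the second 3B3L serum library (-0.11, adjusted p = 0.105) or without the third such library (-0.11, adjusted p = 0.0892).

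The second question was how the lines differed within a medium. In serum 2 of the 8 genes were called higher in 3B3L and 0 lower, where 38.7% of all genes were called, 21.5% higher and 17.2% lower. These were Sall1, with a log2 fold change of 0.22 ± 0.05 (adjusted p = 0.00234), and Lin28a, with 0.17 ± 0.05 (adjusted p = 0.00849). The Lin28a value was 0.14 without the second 3B3L serum library (adjusted p = 0.0517) and 0.14 with no filter on low counts (adjusted p = 0.0580). Sox2 stood at -0.14 ± 0.06 (adjusted p = 0.0705) and was called lower by the DESeq2 Wald test, at -0.15 (adjusted p = 0.0300). It also passed in edgeR with DESeq2 size factors (-0.14, adjusted p = 0.0494), with no filter on low counts (-0.16, adjusted p = 0.0369) and in a fit of the 6 serum libraries alone (-0.16, adjusted p = 0.0263), as well as without the second 3B3L serum library (-0.18, adjusted p = 0.0406), and Pou5f1 passed without the first (-0.20, adjusted p = 0.0473). Libraries of the lines did not overlap in serum for 4 of the 8 genes, beside 50.9% of all genes tested. The median of the 8 genes was 0.02, and that of all genes was 0.03.

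In 2i 5 of the 8 genes were called between the lines, 4 higher and 1 lower in 3B3L, where 45.9% of all genes were called, 23.0% higher and 22.9% lower. Sall4 was higher by 0.60 ± 0.05 on the log2 scale (adjusted p = 1.5e-07), Lin28a by 0.55 ± 0.05 (adjusted p = 1.3e-07), Trim71 by 0.34 ± 0.05 (adjusted p = 2.0e-05) and Sox2 by 0.26 ± 0.06 (adjusted p = 0.00148). Lin28b was lower, at -0.21 ± 0.07 (adjusted p = 0.0268). The Lin28b call was lost without the first J1 2i library (-0.22, adjusted p = 0.0535), without the second (-0.18, adjusted p = 0.0914) or without the second 3B3L 2i library (-0.19, adjusted p = 0.0764). Pou5f1, Sall1 and Zfp281 had values of 0.08 ± 0.08, -0.01 ± 0.05 and 0.05 ± 0.06, and none passed the test. Libraries of the lines did not overlap in 2i for 5 of the 8 genes, beside 52.6% of all genes tested. The median of the 8 genes was 0.17 and that of all genes 0.01.

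Whether the difference between 2i and serum varied with the line was tested by the interaction term, 3B3L minus J1. A positive value for a gene that fell means a smaller fall in 3B3L. Only J1 had feeders in serum, so the interaction cannot be told apart from the loss of feeders in J1. Of the 8 genes 6 were called, 4 positive and 2 negative, where 34.7% of all genes were called, 16.3% positive and 18.3% negative. The positive values were 0.54 ± 0.07 for Sall4 (adjusted p = 3.3e-05), 0.44 ± 0.07 for Trim71 (adjusted p = 0.000121), 0.39 ± 0.08 for Sox2 (adjusted p = 0.00138) and 0.38 ± 0.06 for Lin28a (adjusted p = 0.000294). The negative values were -0.33 ± 0.10 for Lin28b (adjusted p = 0.0174) and -0.23 ± 0.07 for Sall1 (adjusted p = 0.0186). Paralogues thus had opposite signs, for the LIN28 genes and for Sall4 and Sall1. Pou5f1 stood at 0.20 ± 0.11 (adjusted p = 0.190) and Zfp281 at 0.07 ± 0.08 (adjusted p = 0.579). The Pou5f1 value was 0.28 without the first 3B3L serum library (adjusted p = 0.0430) and 0.28 without the third J1 2i library (adjusted p = 0.0342), each of which passed the test. The median of the 8 genes was 0.29, against -0.03 for all genes. These contrasts share libraries, so their values are not independent of one another.

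Ratios of related genes within a library do not depend on library size. The per-length ratio of Lin28a to Lin28b was 17.1 ± 0.771 (SD, n = 3) in J1 serum, 12.6 ± 0.889 in J1 2i, 17.7 ± 1.66 in 3B3L serum and 21.4 ± 1.56 in 3B3L 2i. It was lower in 2i than in serum in J1 and higher in 3B3L, with changes of -0.44 and 0.28 in the log2 ratio of CPM. Averaged over the lines the change with the medium was -0.08 (exact permutation p = 0.540, adjusted p = 0.540 over 6 tests), and averaged over the media the change with the line was 0.41 (exact p = 0.0300, adjusted p = 0.0600), which failed the correction. The ratio of Sall4 to Sall1 was 1.04 ± 0.0313 in J1 serum, 0.591 ± 0.0565 in J1 2i, 0.918 ± 0.0336 in 3B3L serum and 0.899 ± 0.0187 in 3B3L 2i. The log2 ratio of CPM in J1 serum was -0.21, so a ratio above 1 there depends on the per-length unit. The change with the medium in the log2 ratio averaged -0.45 (exact p = 0.01, adjusted p = 0.0300), made up of -0.83 in J1 and -0.06 in 3B3L. The change with the line was 0.22 (exact p = 0.130, adjusted p = 0.195). The ratio of Pou5f1 to Sox2 rose in 2i. It was 7.05 ± 0.236 in J1 serum, 11.5 ± 0.936 in J1 2i, 7.18 ± 0.663 in 3B3L serum and 10.1 ± 0.793 in 3B3L 2i. The log2 change averaged 0.60 (exact p = 0.005, the smallest that 400 arrangements can give, adjusted p = 0.0300), and all 2i libraries lay above all serum libraries of their line. With the line it changed by -0.08 (exact p = 0.305, adjusted p = 0.366).

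**Figure D4:**
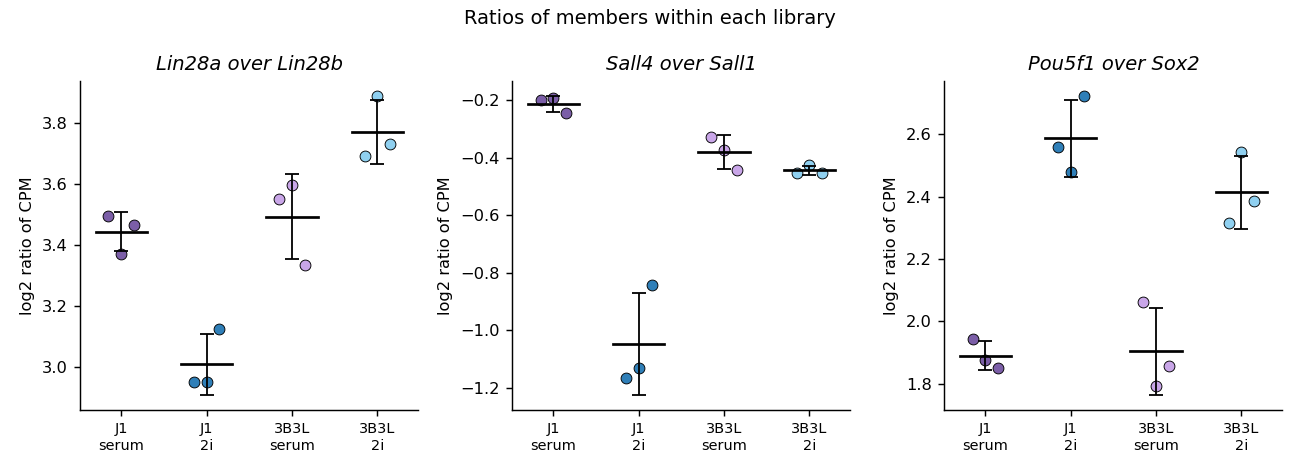
Log2 ratio of the CPM of paired genes in each of the 12 libraries, with the mean and SD of each group of 3; axes do not start at 0. The Lin28a to Lin28b ratio is lowest in J1 2i (mean 3.01) and highest in 3B3L 2i (mean 3.77), and the Sall4 to Sall1 ratio is lowest in J1 2i (mean -1.05).

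Promoters were examined for CpG content, since the lines differ in the enzymes that methylate CpG and methylation itself was not measured in these libraries. RefSeq promoters (GRCm38.p6, from 250 bases before to 50 after the start) were at hand for 7 of the 8 genes, and Sall4 was the exception. Those of the LIN28 paralogues are printed, with each CpG in capitals, because in 2i the genes differed between lines in opposite directions. The Lin28a promoter lies on chromosome 4 at 134018767 to 134019066 and the Lin28b promoter on chromosome 10 at 45470152 to 45470451, both on the minus strand. The start used by the Lin28b window lies 16113 bases inside the gene as annotated, and that of Lin28a 380 bases inside, so the Lin28b window describes an internal start and not the outer one, while the other 5 windows begin at the outer start of their gene.
Lin28a: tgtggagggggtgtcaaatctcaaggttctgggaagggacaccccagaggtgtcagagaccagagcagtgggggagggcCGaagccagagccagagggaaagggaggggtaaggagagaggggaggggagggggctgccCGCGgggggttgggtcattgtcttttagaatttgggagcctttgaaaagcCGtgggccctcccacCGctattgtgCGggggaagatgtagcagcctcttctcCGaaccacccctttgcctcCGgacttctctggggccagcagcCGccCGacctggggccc
Lin28b: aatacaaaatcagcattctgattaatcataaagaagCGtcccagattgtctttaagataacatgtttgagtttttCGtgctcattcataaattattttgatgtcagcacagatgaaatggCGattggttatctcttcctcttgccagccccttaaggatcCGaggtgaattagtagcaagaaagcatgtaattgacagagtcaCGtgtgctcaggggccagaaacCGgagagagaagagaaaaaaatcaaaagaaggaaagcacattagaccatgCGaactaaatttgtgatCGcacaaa
The Lin28a window held 10 CpGs at a GC content of 63.3%, and the Lin28b window 8 CpGs at 39.0%. The observed number of CpGs over that expected from base content was 0.351 for Lin28a and 0.708 for Lin28b, with a median of 0.389 over 27025 promoters of the same length. Pou5f1, at 0.374, and Lin28a were near this median, and Sox2 (0.819), Zfp281 (0.788), Sall1 (0.731) and Trim71 (0.720) were above it. No window at the outer start of Lin28b was examined. The octamer core bound by OCT4, ATGCAAA, was searched on both strands and occurred once among the 7 promoters, in that of Sox2, and in 4.59% of all promoters. The SOX core ACAATG occurred once, in Lin28a, and in 12.8% of all promoters. The full octamer ATGCAAAT, which contains the core, and the TCF motif CTTTGNT had no match in the 7 promoters, against 1.75% and 18.6% of all.

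Genes around the members were grouped in 6 lists from general knowledge, and their shares called are set beside those of all genes tested, which were 66.1% for 2i in J1 and 65.4% for 2i in 3B3L. Joint targets of OCT4 and SOX2 were divided. Of 12 targets, 4 rose and 5 fell in J1 2i (75.0% called), and 6 rose and 3 fell in 3B3L 2i (75.0% called). The median log2 fold change was -0.04 and 0.17. Nanog, a core pluripotency factor, rose in J1, from 307 ± 7.25 CPM in serum to 631 ± 22.2 in 2i, and in 3B3L, where it went from 346 ± 5.85 to 594 ± 15.7 CPM. Lefty1, an inhibitor of Nodal signaling, fell in J1, from 246 ± 4.07 CPM in serum to 35.1 ± 3.56 in 2i, and in 3B3L, where it went from 209.5 ± 12.9 to 39.5 ± 1.51 CPM. Utf1, a chromatin-associated factor of undifferentiated cells, fell by 1.66 on the log2 scale in J1 and by 1.86 in 3B3L. Zfp42 (REX1) fell in J1, by 0.36, and rose in 3B3L, by 0.39, and the difference of 0.75 passed the interaction test (adjusted p = 6.1e-06). Spp1, which encodes osteopontin, had the largest positive interaction of the list, at 0.86.

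NuRD, the complex to which the SALL factors bind, had 13 subunit genes measured. In J1 2i 4 rose and 7 fell (84.6% called, median -0.16), and in 3B3L 2i 6 rose and 6 fell (92.3% called, median 0.06). Mbd3, which encodes a subunit that defines the complex, fell in J1, from 151 ± 3.35 CPM in serum to 99.2 ± 11.5 in 2i, and in 3B3L, where it went from 125 ± 9.14 to 102 ± 3.18 CPM. Mta2 rose by 0.27 in J1 and by 0.48 in 3B3L on the log2 scale. Chd3, a remodelling ATPase, fell in 3B3L from 52.8 ± 3.09 to 21.7 ± 1.13 CPM and stood at 37.5 ± 1.28 and 38.3 ± 1.95 CPM in J1, an interaction of -1.31.

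The machinery that makes, tails and degrades let-7 had 11 genes measured, of which 6 rose and 2 fell in each line in 2i (72.7% called in each). Median log2 fold changes were 0.19 in J1 and 0.14 in 3B3L. Ago2, which encodes the slicing Argonaute, rose in J1, from 193 ± 9.71 CPM in serum to 277.9 ± 37.96 in 2i, and in 3B3L, where it went from 282 ± 21.6 to 411 ± 21.0 CPM. Dicer1, which cuts the precursor that LIN28 proteins bind, fell in J1, from 186 ± 5.88 CPM in serum to 139 ± 7.72 in 2i, and in 3B3L, where it went from 202 ± 14.6 to 129 ± 2.82 CPM. Zcchc11 (TUT4), which adds the U tail, had a log2 fold change of 0.25 in J1, which passed the test, and of -0.16 in 3B3L, which did not, with an interaction of -0.40 (adjusted p = 0.0118).

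Among 24 well-known let-7 targets other than the members, 7 rose and 12 fell in J1 2i (79.2% called, median -0.13), and 5 rose and 12 fell in 3B3L 2i (70.8% called, median -0.14). The cyclin gene Ccnd2 fell in J1, from 20.9 ± 0.809 CPM in serum to 0.687 ± 0.0809 in 2i, and in 3B3L, where it went from 13.15 ± 0.522 to 0.802 ± 0.0488 CPM. Mycn, a MYC family factor, fell in J1, from 276 ± 1.02 CPM in serum to 67.8 ± 4.02 in 2i, and in 3B3L, where it went from 189 ± 11.2 to 57.6 ± 1.08 CPM. Igf2bp3, which encodes an oncofetal RNA-binding protein, rose in J1, from 66.7 ± 2.29 CPM in serum to 205 ± 6.74 in 2i, and in 3B3L, where it went from 90.2 ± 2.95 to 157 ± 5.81 CPM. The architectural factor gene Hmga2 fell in J1, from 15.7 ± 1.70 to 10.1 ± 1.1 CPM, and rose in 3B3L, from 28.6 ± 1.08 to 46.3 ± 2.35 CPM, with an interaction of 1.33.

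All 8 mRNAs listed as TRIM71 targets were called in 2i in each line, 4 higher and 4 lower in J1 (median 0.20) and 5 higher and 3 lower in 3B3L (median 0.55). Cdkn1a, which encodes the cell cycle inhibitor p21, rose in J1, from 42.3 ± 2.13 CPM in serum to 150.3 ± 8.16 in 2i, and in 3B3L, where it went from 42.8 ± 1.14 to 160.5 ± 2.72 CPM. Egr1, an immediate early gene of the ERK pathway, fell in J1, from 99.3 ± 8.82 CPM in serum to 10.7 ± 3.49 in 2i, and in 3B3L, where it went from 49.2 ± 1.14 to 1.504 ± 1.23 CPM. Rbl1, a relative of the retinoblastoma gene, rose by 1.12 in J1 and by 0.82 in 3B3L on the log2 scale.

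Close relatives of the members gave 13 measured genes, of which 2 rose and 8 fell in J1 2i (76.9% called, median -0.66) and 3 rose and 9 fell in 3B3L 2i (92.3% called, median -0.46). Pou3f1 (OCT6), a POU factor of the primed state, fell in J1, from 20.04 ± 1.06 CPM in serum to 0.619 ± 0.234 in 2i, and in 3B3L, where it went from 29.2 ± 1.66 to 0.454 ± 0.0824 CPM. Within the SALL family, Sall3 rose in J1, from 4.84 ± 0.531 CPM in serum to 12.1 ± 0.439 in 2i, and in 3B3L, where it went from 2.92 ± 0.280 to 13.9 ± 0.711 CPM, and Sall2 fell from 14.2 ± 0.764 to 6.89 ± 0.588 CPM and from 29.7 ± 0.665 to 9.29 ± 0.339 CPM. Trim2, of the same TRIM-NHL family as Trim71, fell by 1.53 in J1 and by 0.46 in 3B3L, with an interaction of 1.08.

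In the comparisons of the lines in serum, the share called was 75.0% for OCT4 and SOX2 targets, 46.2% for NuRD, 63.6% for let-7 processing, 70.8% for let-7 targets, 62.5% for TRIM71 targets and 69.2% for the relatives, beside 38.7% of all genes tested. In 2i these shares were 83.3%, 84.6%, 36.4%, 54.2%, 75.0% and 30.8%, in the same order, beside 45.9% of all genes. The 2 lowest were 4 of 11 let-7 processing genes, 3 higher and 1 lower in 3B3L, and 4 of 13 relatives, 2 higher and 2 lower. For the interaction the shares were 66.7%, 69.2%, 45.5%, 50.0%, 50.0% and 61.5%, beside 34.7% of all genes. These lists are short, and their shares were not tested against the background.

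**Figure D5:**
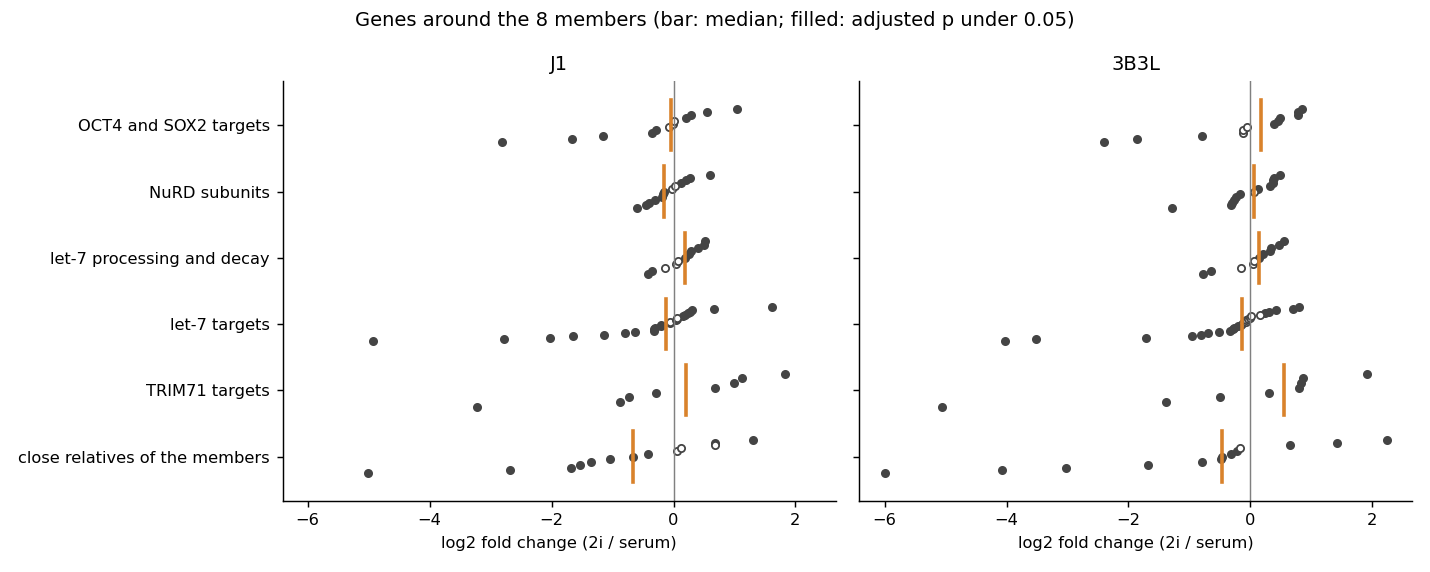
Log2 fold changes (2i over serum) of every measured gene of the 6 lists in J1 (left) and 3B3L (right), 1 point per gene, filled where the test was passed, with the median of each list as a bar. List medians lie between -0.66 and 0.55, and most lists hold points on each side of 0.

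The genes whose levels followed each member most closely over the 4 groups were found among 8343 genes with at least 10 CPM in every group, by the root mean square difference of centred log2 group means. Phc1, a polycomb gene, was most like Lin28b (difference 0.0130), at 743, 379, 814 and 320.0 CPM in J1 serum, J1 2i, 3B3L serum and 3B3L 2i, followed by Pfkl (0.0290). Klhl24 (0.0435) and Srf (0.0592) were nearest to Lin28a. For Sox2 they were Dlc1 (0.0188) and Vamp3 (0.0311), and for Sall4 Fam100a (0.0196) and Abcg1 (0.0274). Sall1 was matched by 2610318N02Rik (0.0147) and Gk5 (0.0186), and Trim71 by Osbpl2 (0.0135) and Diexf (0.0156). The flat profile of Pou5f1 was shared by Psma2 (0.00811) and Copb2 (0.00996), and that of Zfp281 by Mettl13 (0.00916) and Zfp41 (0.0129). With 4 group means a close match is a description only.

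Markers of mESCs and of other cell types were measured beside the members. All 12 mESC markers, without the members, reached 1 CPM in every group, and their summed level was 4587 to 5137 CPM in serum and 6198 to 7264 CPM in 2i. The markers did not move together. Tfcp2l1, a factor of the naive state, stood in J1 at 216 ± 7.69 CPM in serum and 1064 ± 112 in 2i and in 3B3L at 226 ± 12.6 and 1223 ± 13.1 CPM, and without it the sum was 4350 to 4930 CPM in serum and 5036 to 6055 CPM in 2i. Means of Utf1, Dppa4 and L1td1 were lower in 2i in each line, that of Zfp42 in J1 only, and those of Tdgf1 and Fgf4 in 3B3L only. Of 12 fibroblast markers, 7 reached 1 CPM in each serum group, 4 in J1 2i and 5 in 3B3L 2i. Their sum was 68.5 to 73.7 CPM in J1 serum, where the cells had grown on feeders, and 87.6 to 101 CPM in 3B3L serum. It was 30.7 to 31.5 CPM in J1 2i and 19.6 to 19.99 CPM in 3B3L 2i. Whether feeder RNA contributed to these sums was not tested. Pdgfrb, a growth factor receptor gene, went against the list in J1, at 6.31 ± 0.855 CPM in serum and 19.4 ± 0.896 in 2i, and stood at 7.39 and 7.33 CPM in 3B3L. Without it the sum was 63.1 to 67.3 CPM in J1 serum, 80.2 to 94.9 CPM in 3B3L serum and 10.7 to 12.7 CPM in 2i. Lum was at 0 in every group but 3B3L serum (0.00858 CPM), and Dcn was at 0 in 2i. Primitive endoderm markers were 9 in all, with 4 to 7 at 1 CPM. Their sum was 210 to 266 CPM in serum and 40.8 to 63.5 CPM in 2i, led by the laminin gene Lamb1 and by Col4a1. Gata4 went against the list, with J1 means of 2.23 ± 0.534 CPM (serum) and 4.14 ± 0.203 CPM (2i). For 3B3L its means were 3.40 ± 0.310 CPM (serum) and 4.21 ± 0.0773 CPM (2i). The group means of Sox17 and Foxa2 were at most 0.522 and 0.344 CPM, and that of Sox17 was higher in 2i in J1 only.

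Sox2, Lin28a and Lin28b are also used in neural precursors, and Pou5f1, Sall4 and Lin28a in germ cells. Of 7 neural markers measured, 2 or 3 reached 1 CPM in each group, and their sum was 186 to 213 CPM in serum and 110 to 129 CPM in 2i, so it was lower in the medium in which Sox2, Lin28a and Lin28b were lower. Nes and Tubb3 made up most of the sum, and the group means of Neurog2 and Olig2 were at most 0.0261 and 0.0878 CPM. Pax6 stood at 8.17 ± 0.828 CPM in J1 serum and 0.320 ± 0.0227 in J1 2i. In 3B3L it was at 7.51 ± 0.290 CPM in serum and 0.359 ± 0.125 in 2i. Nes was lower in 2i in each line, but Tubb3 only in J1. For 3B3L the Tubb3 means were 82.8 ± 8.40 CPM (serum) and 87.0 ± 3.64 CPM (2i). Of 7 germ cell markers, 6 or 7 reached 1 CPM, and their sum moved the other way, from 183 to 198 CPM in serum to 355 to 382 CPM in 2i, led by Kit, which stood at 59.5 ± 3.98 and 281 ± 14.2 CPM in J1 and at 61.5 ± 2.68 and 293 ± 1.55 CPM in 3B3L. Without Kit the sum was lower in 2i, at 76.1 to 90.9 CPM against 123 to 134 CPM in serum. The means of Ddx4, Dnd1, Prdm1 and Tfap2c were lower in 2i in each line, while those of Dazl and Nanos3 were higher. The part of these marker changes in the members' values was not tested. In bulk libraries fewer cells of a type and less RNA per cell cannot be told apart.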

How the data were processed

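Poly(A) RNA of 12 mESC libraries was sequenced as stranded libraries on a NextSeq instrument. The authors quantified transcripts with Sailfish against mm10 models and deposited a table of estimated counts per gene, summarised with tximport, and for each library a table of estimated counts and TPM per transcript. These estimated counts, as deposited, were not scaled by library size or length, and the authors' TPM values were read but not used for any result. Samples were grouped by their labels, which give replicate numbers and call the samples biological replicates without describing the cultures, so p-values measure the spread between these samples. Libraries were sequenced in pools, and which pool held which library is not given in the sources used here.

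Estimated counts were rounded to whole numbers and genes kept by filterByExpr (17885 of 39017). edgeR (version 4.0.16, R 4.3.3) was used for TMM scaling (factors 0.970 to 1.04) and a quasi-likelihood fit with 1 coefficient per group to all 12 libraries. A gene was called where its p, adjusted by Benjamini-Hochberg across the 17885 genes, was under 0.05. A floor of 3 counts was 0.0674 to 0.0810 CPM, and such floors cover counting error only. The per-length level used transcripts with an effective length of at least 200 bases. Ratios were tested by exact two-sided permutation of the medium within each line or the line within each medium (SciPy 1.17.1). Coordinates and promoters are from RefSeq (GRCm38), and 3′ UTRs from GENCODE vM1 transcript sequences, whose NCBIM37 coordinates were not used. BLAST (version 2.17.0) found no copy of a member transcript of at least 90% identity over at least 100 bases among another gene's quantified transcripts with a sequence at hand. No 2 libraries of a group agreed within sampling noise. Members, lists and tests were chosen with earlier results of these data known. Named genes are the members, from each list at most 2 higher and 2 lower per 2i contrast and interaction by largest log2 fold change among called genes with at least 10 CPM in the highest group, the 2 genes most like each member, and marker genes as examples. Alternatives were DESeq2 (version 1.42.0) size factors and Wald test, other filters, the 6 libraries compared, a replicate block, length offsets, summed transcript counts, a 2-fold threshold, no length minimum, read shares and leaving out each library.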

Additional observations from a re-analysis of the deposited data

Results flagged for a closer look

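For 6 of the 8 genes the 2i effect differed between the lines by the edgeR interaction test, in which 34.7% of all genes tested were called. The differences, 3B3L minus J1, were 0.54 for Sall4, 0.44 for Trim71, 0.39 for Sox2 and 0.38 for Lin28a, which fell less in 3B3L. They were -0.33 for Lin28b and -0.23 for Sall1, which fell more in 3B3L. Over the alternatives the adjusted p reached at most 0.0435 for Lin28b, 0.0485 for Sall1, 0.00764 for Sox2, 0.00232 for Lin28a, 0.00114 for Trim71 and 0.000300 for Sall4. The line effect cannot be told apart from the culture surface in serum, where J1 grew on feeders and 3B3L on gelatin. For the same reason the 2i effect in J1, and so each of these differences, cannot be told apart from the loss of feeders. Groups of 3 libraries are too small for the test of single outlying libraries.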

How the results depend on the processing

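Of 40 fitted values (8 genes in 5 contrasts), 28 kept their direction and their side of the threshold under every alternative, and 769 of 792 alternative values did so. A 2-fold threshold left 1 called gene of 8 for 2i in J1, 2 for 2i in 3B3L, 0 between the lines in serum, 0 between the lines in 2i and 0 in the interaction. These counts of 0 came from the edgeR calls with a fold threshold, without which 2, 5 and 6 genes were called by edgeR and 3, 5 and 6 by the DESeq2 Wald test. Leaving out single libraries gave 6 to 7, 6 to 8, 2 to 3, 4 to 5 and 6 to 7 called genes in the 5 contrasts. Reversed directions occurred in genes that were not called. Leaving out single libraries, the 2i effect in J1 of Pou5f1 ranged from -0.16 to 0.010 and its line difference in 2i from -0.00385 to 0.16, each turning without the second J1 2i library. The line difference in 2i of Sall1 ranged from -0.063 to 0.030, turning without the first or the second J1 2i library. That of Zfp281 in serum ranged from -0.059 to 0.030, turning without the first 3B3L serum library. The cause was not tested.

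Leaving out single libraries, the change in the log2 ratio of Lin28a to Lin28b ranged from -0.12 to -0.05 with the medium and from 0.38 to 0.45 with the line (unadjusted exact p 0.01 to 0.055). For Sall4 to Sall1 it ranged from -0.50 to -0.42 with the medium and from 0.19 to 0.27 with the line, and for Pou5f1 to Sox2 from 0.57 to 0.64 and from -0.12 to -0.05. Without the minimum on effective length the per-length level of Pou5f1 was 1155 in J1 serum and 1149.7 in 3B3L 2i. Counted in reads, the share of Pou5f1-001 was 99.4%, 99.4%, 99.6% and 98.9% and that of Sall4-001 97.3%, 97.2%, 97.4% and 97.1% in J1 serum, J1 2i, 3B3L serum and 3B3L 2i. Deviations of same-numbered libraries from their group means correlated between -0.22 and 0.0984 over 18 pairs. Over 36 pairs with other numbers they correlated between -0.36 and 0.34. No pairing by replicate number was seen, which does not exclude one. With the replicate block 6, 7, 2, 5 and 6 genes were called in the 5 contrasts, as without it. The lowest library of any of the 8 genes, Lin28b in 3B3L 2i, stood at 14.5 CPM, against a floor of at most 0.0810 CPM set by depth.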
